A study of Mus musculus with 4 samples.

Results

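The proteasome genes were followed in the prostate of 4 mice with conditional loss of tumour suppressor genes. Members were all probes that were not controls and whose gene name began with Psma, Psmb, Psmc, Psmd or Psme and a digit, leaving out the immunoproteasome genes Psmb8, Psmb9 and Psmb10. The rule met 40 of the 27962 gene names on the array, read by 60 of 41174 probes. The core particle had 17 probes for 15 genes, the regulatory particle 33 probes for 20 genes and the activator caps 8 probes for 4 genes. Psmc3ip, with 2 probes, was met by its spelling alone: it codes for a recombination cofactor and is no subunit, so it is given apart.

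Prostate RNA was measured on 4 two-colour arrays carrying probes of 60 bases. On each, the RNA of a single mouse was labelled red and compared with a green pool of wild-type prostate from 3 mice. The dyes were not swapped. In 2 mice, of genotype Rb1R654W/F:Trp53F/F:PB-cre4 and called mutant here, 1 allele of Rb1 coded for a retinoblastoma protein with the R654W substitution, which by the study's title cannot bind E2F, and the other allele was conditional. The other 2, Rb1F/F:Trp53F/F:PB-Cre4, carried 2 conditional Rb1 alleles and are named null. All 4 therefore shared the conditional Trp53 alleles and the Cre transgene, were 60 days old, untreated and of the mixed C57BL/6:129/SVJae:FVB background. The age and strain of the pooled mice are not stated in the labels. The probasin promoter drives PB-Cre4 in prostate epithelium, so stroma and other cells in the tissue keep their conditional alleles, and their RNA is in every value. Fewer cells of a type and less RNA per cell cannot be told apart in such bulk tissue. The design asks how the mutant differs from the null and how each differs from wild-type tissue.

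The proteasome degrades proteins tagged with ubiquitin. Its barrel, the core particle, stacks rings of alpha subunits, which gate the entrance, on rings of beta subunits, some of which cut the protein. The regulatory particle caps the barrel: its base holds a ring of ATPases that unfold the substrate and larger scaffold subunits, and its lid removes ubiquitin. The subunits assemble in fixed proportion, and the transcription factor Nfe2l1 is known to raise their genes together when proteasome activity is short. Several regulators of the cell cycle that act beside Rb1 and p53 are degraded by it.

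Sequences are shown for 6 of the probes described below with values apart from the pool or between genotypes; these 6 each cross at least 1 intron in the files' mm7 coordinates and so read spliced RNA. They are given from 5′ to 3′ on the strand named, and the letters are those of the deposited files. Psma3 probe 1 lies at chr12:68922646-68927208 (plus strand), Psma4 probe 1 at chr9:54984820-54985019 (plus strand) and Psma4 probe 2 at chr9:54985070-54986416 (plus strand). Psmd2 probe 2 lies at chr16:20210118-20210417 (plus strand), Psmd12 probe 2 at chr11:107594819-107595455 (plus strand) and Psmd13 probe 1 at chr7:137303825-137304292 (plus strand). Each stretch is longer than the 60 bases of its probe because it takes in the intron.
Psma3 probe 1: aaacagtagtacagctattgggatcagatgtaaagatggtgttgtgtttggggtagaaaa
Psma4 probe 1: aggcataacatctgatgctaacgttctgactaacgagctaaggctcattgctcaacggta
Psma4 probe 2: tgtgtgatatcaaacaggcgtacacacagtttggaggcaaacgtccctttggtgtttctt
Psmd2 probe 2: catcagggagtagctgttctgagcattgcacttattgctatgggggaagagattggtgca
Psmd12 probe 2: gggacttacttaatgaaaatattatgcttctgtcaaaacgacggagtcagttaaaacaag
Psmd13 probe 1: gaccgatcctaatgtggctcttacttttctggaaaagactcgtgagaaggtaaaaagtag
Each of the 6 has at least 1 reading frame without a stop codon. In the file coordinates 25 of the 60 member probes span more than 60 bases. Among them Psme3 probe 1 spans 61, too few to take in an intron. Exon numbers were not assigned, because the annotation used here is of another build.

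Of the 60 probes, 58 entered the fit, and 56 were well above background in both channels on all 4 arrays. Psme4 probes 2 and 3 entered the fit without being so on every array. The 2 that did not enter were Psma8, a testis form of an alpha subunit, and Psmd11 probe 2, which reads the opposite strand to Psmd11 probe 1. The arrays were not of equal quality. The median background-subtracted mouse signal was 20.5 on the array of null mouse 1, against 55.1 to 90.1 on the others, while the pool channel lay between 24.2 and 24.9. Over 34 probes of inducible heat shock genes, the median log2 ratio to the pool was 2.48 in null mouse 1 and between -0.063 and 0.17 in the others. Markers of cell types also set null mouse 1 apart. There 9 macrophage probes had a median of -0.34, against 0.70 to 1.32 in the others. For 8 fibroblast probes it was -0.81 against 0.085 to 0.70, and for 6 adipocyte probes -1.42 against 0.76 to 1.47. The 4 basal epithelium probes went the other way, with 1.06 against -0.37 to -0.048. Prostate secretory genes were measured and went both ways. Pbsn (probasin) was at 1.18 and 0.92 in mutants and 0.34 and -0.21 in nulls. Msmb was at 1.93 and 0.68 in mutants and -3.13 and -0.17 in nulls. In a list of 13 secretory and luminal probes, array medians were 0.28 and 0.12 in mutants and 0.088 and -0.19 in nulls. Of the 13, 5 were higher in both mutant mice than in both null mice and 1 was lower. These shares over all probes tested were 16.8% and 13.7%. In both mutant mice 4 of the 13 were below the pool and 8 above, against 29.2% and 37.2% of all probes. The 4 probes of seminal vesicle secretion genes were below the pool in every mouse, with array medians from -4.64 to -0.61. How far tissue makeup, the dim array or the heat shock genes take part in the proteasome values was not tested.

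No proteasome probe passed the threshold in any of the 4 comparisons. The smallest adjusted p of a member in limma, with adjustment over all 24918 probes tested, was 0.985 for mutant against null, 0.453 for mutant against the pool, 0.474 for null against the pool and 0.193 for all 4 mice against the pool. Over all probes the shares called were 0.0%, 0.0%, 0.0% and 0.012%. Without adjustment, p in limma was under 0.05 for 1, 10, 5 and 19 of the 58 members, against 2.19%, 10.6%, 10.2% and 17.6% of all probes. Median centring in place of loess raised the median of all probes by 0.34 log2 units in the mean of the 4 mice. With that shift left in, 21 of the 56 subunit probes were called above the pool in limma and 0 below. Of all probes 17.1% were called, 16.8% above the pool. Under median centring, and relative to that shift, 21 of the 58 members changed sign in the mean of the 4 mice. They were Psma5, Psma7, Psmb3 probe 2, Psmb4, Psmb5, Psmb6, Psmc1, Psmc2 probes 1 and 2, Psmc3, Psmc5 probe 1, Psmd1, Psmd2 probe 1, Psmd3, Psmd4 probe 1, Psmd5, Psmd6, Psmd7 probe 1, Psme1 and Psme4 probes 1 and 2. The directions below are those under loess. In all 4 mice 10 of the 58 members were above the pool and 15 below, against 16.7% and 14.8% of all probes. Of the 32 regulatory probes 3 were above it in all 4 mice and 9 below, and of the 16 core probes 5 and 4. Most members lay close to the pool: 56 of 58 were within 0.5 log2 units of it in the mean of all 4 mice. The median over the 58 was 0.025 there, as was that over all probes tested, with 0.18 for the core and 0.0057 for the regulatory particle. What follows is therefore a description of levels. Each value is a log2 ratio of the mouse to the wild-type pool unless stated, and 4 values in a row belong to the first and second mutant mouse and then to null mouse 1 and null mouse 2.

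**Figure D1:**
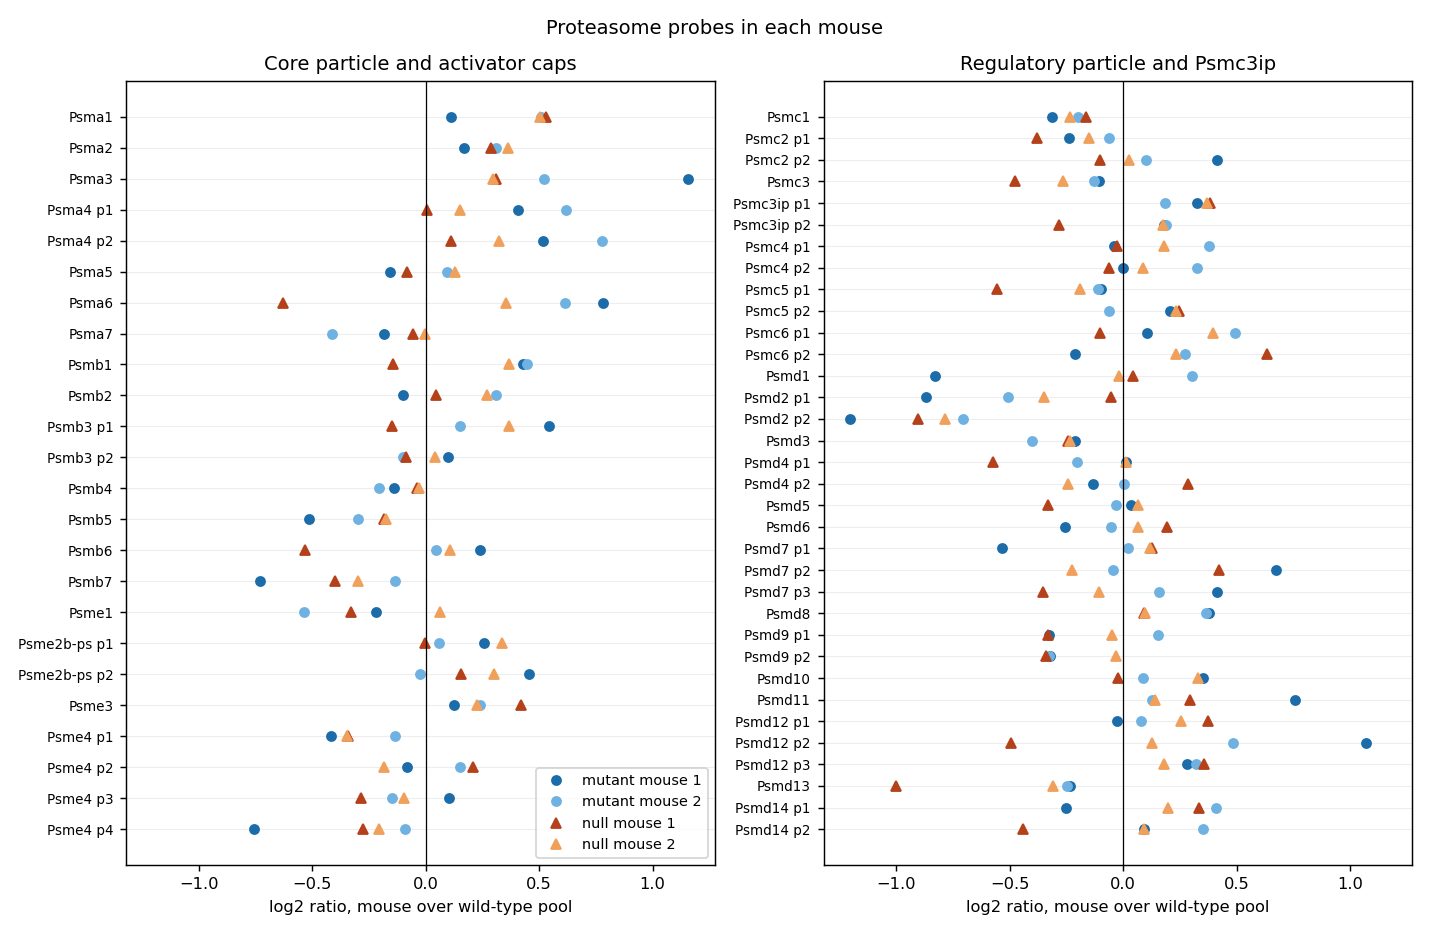
Each row is 1 of the 58 tested probes (p1 to p4 number the probes of a gene) and each point the log2 ratio of 1 mouse to the wild-type pool, with circles for mutant and triangles for null mice. Psma3 and both Psma4 probes lie at or above 0 in all 4 mice and Psmd2 p1 and p2 below it, although Psmd2 p1 moves to 0.026 in the mean of the mice under median centring.

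The alpha ring had the highest median of the parts in the mean of the 4 mice, and Psma3 the highest single mean. In null mouse 1 the lid median, 0.13, was above that of the alpha ring. The 8 tested alpha probes had a median of 0.29 over the 4 mice and array medians of 0.29, 0.51, 0.058 and 0.31. Over the 4 mice the median was 0.27 with the processed signals of the scanner software and 0.73 under median centring. Under median centring, however, every part of the proteasome had a median above 0. In all 4 mice 5 of the 8 probes were above the pool and 1 below, where over all probes tested 16.7% were above the pool in all 4 mice and 14.8% below, 31.5% together.

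Psma3 read 1.16, 0.52, 0.31 and 0.30. The mutant values were both above the null ones, and mutant mouse 1 was far above the rest. The mean of the mutant mice was 0.84 ± 0.45 (SD, n = 2), or 179% of the pool, and that of the null mice 0.30 ± 0.0089, or 123%. In limma the mean of the 4 was 0.57 (SE 0.13, adjusted p = 0.203).

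Psma4, another alpha subunit, was read by 2 probes that gave the same order. Probe 1 was at 0.41, 0.62, 0.0033 and 0.15, and probe 2 at 0.51, 0.78, 0.11 and 0.32. On both probes the mutant mice were above the null mice. The mutant means were 143% and 156% of the pool and the null means 105% and 116%.

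Psma1 was at 0.11, 0.51, 0.53 and 0.50, with mutant mouse 1 apart from the other three. Psma2 was at 0.17, 0.31, 0.29 and 0.36, and its groups overlapped. Psma6 read 0.78, 0.61, -0.63 and 0.35. Its null mean of -0.14 ± 0.69 (SD, n = 2) has little precision: it was 0.35 without null mouse 1 and 0.20 under median centring. Psma5 lay between -0.16 and 0.13, and Psma7, with -0.19, -0.41, -0.054 and -0.0047, was the alpha probe below the pool in every mouse, although its mean was at 0.40 under median centring.

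The beta ring lay on both sides of the pool. Its 8 probes had a median of -0.023 over the 4 mice, or 0.49 under median centring; none was above the pool in every mouse and 3 were below. The subunits with the proteolytic sites are Psmb5, Psmb6 and Psmb7. Psmb5, whose site cuts after hydrophobic residues, read -0.51, -0.30, -0.18 and -0.17; its mean of -0.29 became 0.15 under median centring. Psmb7, with the trypsin-like site, was at -0.73, -0.13, -0.40 and -0.30, and its groups overlapped. Psmb6, with the caspase-like site, was at 0.24, 0.043, -0.53 and 0.11, so that null mouse 1 alone was below the pool. Of the structural beta subunits, Psmb1 read 0.43, 0.45, -0.15 and 0.37, and null mouse 1 was again the lowest. Psmb2 lay between -0.10 and 0.31, Psmb4 between -0.21 and -0.030 (a mean of -0.10, or 0.47 under median centring), and the 2 Psmb3 probes between -0.15 and 0.54. The immunoproteasome genes, which replace these 3 catalytic subunits in inflamed tissue, followed another order: the 4 probes of Psmb8, Psmb9 and Psmb10 had array medians of 0.83, 0.089, -0.53 and 1.01. The macrophage medians, 1.01, 0.70, -0.34 and 1.32, put the mice in the same order, and their part in these values was not tested.

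**Figure D2:**
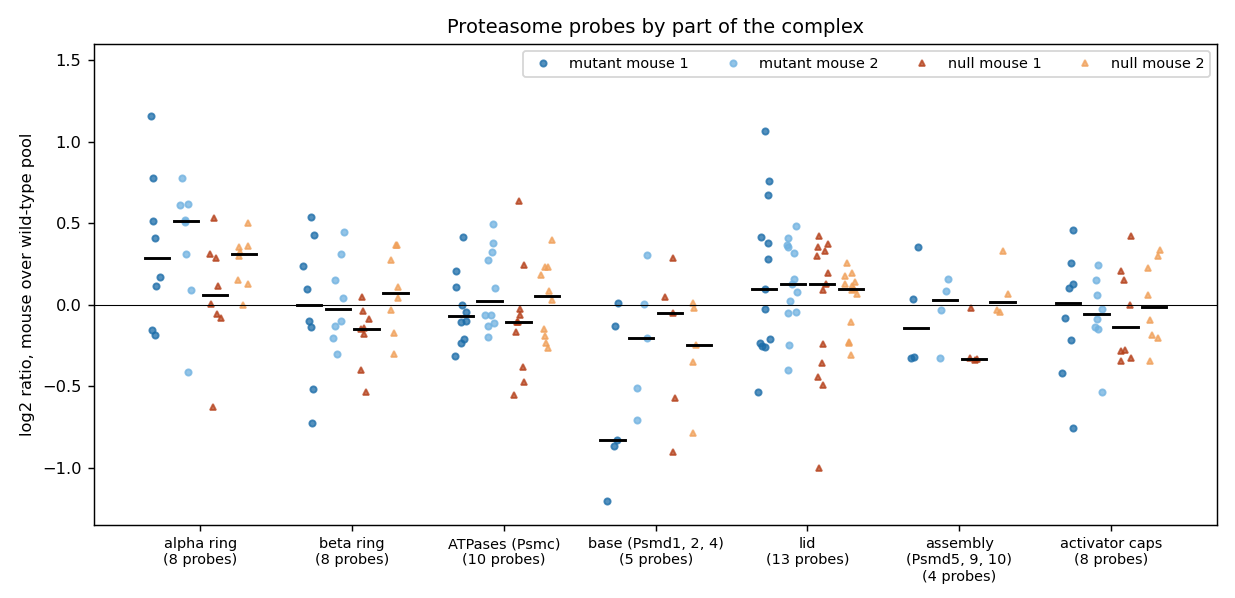
Each point is a probe, its height the log2 ratio of 1 mouse to the wild-type pool, and the bars are the medians of each part of the complex in each mouse. The alpha ring medians run from 0.058 to 0.51, while the beta ring medians run from -0.15 to 0.074.

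The 10 ATPase probes of the base, for Psmc1 to Psmc6, had a median of 0.098 over the 4 mice; none was above the pool in every mouse and 4 were below it, where the shares over all probes were 16.7% and 14.8%. Psmc1 was at -0.31, -0.20, -0.17 and -0.24, with overlapping groups; its mean of -0.23 (SE 0.089) turned to 0.18 under median centring. Psmc3 read -0.11, -0.13, -0.48 and -0.26, so the null values were the lower; its mean of -0.24 turned to 0.14 under median centring. The 2 probes of Psmc4 lay between -0.065 and 0.38. Psmc2, Psmc5 and Psmc6 were each read by 2 probes that did not give the same order of mice.

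The lowest mean of all members was that of Psmd2, a large scaffold of the base that receives ubiquitin-like domains. Its probe 2 read -1.20, -0.71, -0.90 and -0.79. All 4 mice were well below the pool and the genotypes overlapped. The mutant mean was 51.6% and the null mean 55.7% of the pool. The mean of the 4 mice was -0.90 ± 0.22 (SD, n = 4), with a 95% interval of -1.20 to -0.60 and an adjusted p of 0.193 in limma, and it was -0.87 without null mouse 1. Psmd2 probe 1, on the same chromosome at 20213208 to 20213267, was less far below, at -0.87, -0.51, -0.053 and -0.35, and its mean of -0.45 moved to 0.026 under median centring. Psmd1, the other large scaffold, was at -0.83, 0.30, 0.045 and -0.019, so that its mean of -0.12 rests on mutant mouse 1: it was 0.16 without that mouse and 0.12 under median centring. The ubiquitin receptor Psmd4 was read at 0.011, -0.20, -0.57 and 0.012 by probe 1 and at -0.13, 0.0031, 0.29 and -0.24 by probe 2.

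The lid had 13 tested probes with a median of 0.17 over the 4 mice, against 0.025 over all probes. Processed signals of the scanner software gave 0.12 and median centring 0.38, but under median centring every part had a median above 0. Psmd8 was above the pool in every mouse, at 0.38, 0.37, 0.091 and 0.098, with little spread within a genotype. Psmd11 probe 1 was at 0.76, 0.13, 0.30 and 0.14, and mutant mouse 1 was again the highest. Psmd14, the enzyme that cuts ubiquitin from the substrate, was at -0.25, 0.41, 0.33 and 0.20 by probe 1 and at 0.093, 0.35, -0.44 and 0.092 by probe 2. Below the pool lay Psmd13, at -0.24, -0.25, -1.0 and -0.31. Its lowest value was that of null mouse 1, and its mean of -0.45 was -0.28 without that mouse. Psmd3 was at -0.21, -0.40, -0.24 and -0.23, a mean of -0.27 that was 0.38 under median centring. Psmd6 read -0.26, -0.054, 0.19 and 0.066, but its mutant mean of -0.16 was 0.35 and its null mean of 0.13 was 0.46 under median centring. The 3 Psmd7 probes spanned -0.54 to 0.67.

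The chaperones that help build the base, Psmd5, Psmd9 and Psmd10, had 4 probes with a median of -0.10, or 0.14 under median centring. Psmd10, also called gankyrin, is known to bind the retinoblastoma protein. It read 0.35, 0.086, -0.021 and 0.33, and the groups overlapped. Psmd5 lay between -0.33 and 0.066. Psmd9 probe 2 was at -0.32, -0.33, -0.34 and -0.030, and probe 1 between -0.33 and 0.15. The activator caps had 8 probes with a median of -0.042, or 0.23 under median centring. Psme3, the cap of the nuclear proteasome, was above the pool in every mouse, at 0.13, 0.24, 0.42 and 0.23. Psme1, a subunit of the interferon-induced cap, was at -0.22, -0.53, -0.33 and 0.062, and its mean of -0.26 was 0.23 under median centring. The 2 probes named Psme2b-ps in the files sit beside Psme1 on chromosome 14, where RefSeq (GRCm38.p6) places Psme2, its partner; they lay between -0.026 and 0.46. Psme4, a single-chain activator, had 4 probes between -0.76 and 0.21. Psmc3ip, which is no subunit, was at 0.32, 0.18, 0.38 and 0.37 by probe 1 and at 0.18, 0.19, -0.28 and 0.17 by probe 2.

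Between mutant and null prostate, 14 of the 58 probes were higher in both mutant mice than in both null mice and 9 were lower. Over all probes tested these shares were 16.8% and 13.7%, 30.5% together. The median difference, mutant minus null, was -0.015 for the core particle, 0.096 for the regulatory particle and -0.011 for the activator caps, against 0.022 for all probes. The core median turned to 0.24 and the activator median to 0.053 under median centring, with the shift of this comparison taken out. Without null mouse 1 the regulatory particle median was -0.029 and that of the core particle -0.082. Among parts, the alpha ring stood at 0.19, the lid at 0.22 and the base scaffold and receptor probes at -0.11. The 13 probes of smooth muscle markers had array medians of -0.36, -0.53, 0.22 and -0.10, the highest in null mouse 1. Of them 11 were lower in both mutant mice than in both null mice, against 13.7% of all probes. For mutant against null 0 of these marker probes were called, with a smallest adjusted p of 0.985 in limma. Their part in the differences below was not tested.

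The difference was largest for Psmd12 probe 2, which reads a lid subunit. It read 1.07, 0.49, -0.49 and 0.13, so both mutant values were above the null ones. The difference in limma was 0.96 (SE 0.32, 95% interval 0.14 to 1.78, unadjusted p = 0.0294, adjusted p = 0.985). It was 0.65 without null mouse 1. The other probes of the gene lie about 12 kb further along chromosome 11, at 107606690 to 107606749 (probe 3) and 107606858 to 107606917 (probe 1). Probe 3 was at 0.28, 0.32, 0.35 and 0.18 and probe 1 at -0.028, 0.078, 0.37 and 0.25, so neither had the mutant mice above the null mice. Psma6 followed with a difference of 0.83 (SE 0.36), or 0.34 without null mouse 1 and 1.33 without null mouse 2. Psma3 came next with 0.53 (SE 0.26), or 0.22 and 0.85 without the first and the second mutant mouse, then Psmd7 probe 3 with 0.51 (SE 0.21), and Psma4 with 0.44 and 0.43 on its 2 probes. The lowest differences were those of Psmd2 probe 1, at -0.49 (SE 0.23), Psmc6 probe 2, at -0.40, and Psmd7 probe 1, at -0.38. Without mutant mouse 1 these were -0.31, -0.16 and -0.099. Without mutant mouse 2 the last pair were -0.65 and -0.66, and Psmc6 probe 2 was -0.20 without null mouse 1. For Psma1 the difference was -0.21 (SE 0.21), or 0.057 under median centring and -0.0077 without mutant mouse 1. Psmc1 differed by -0.056 (SE 0.18), or 0.20 under median centring, Psmd1 by -0.27 (SE 0.40) and Psmd10 by 0.066 (SE 0.22), and each of these 3 changed sign when 1 mouse was left out. The median half-width of the 95% interval was 0.56 over the 58 probes, and for 46 of them the interval lay within a 2-fold change in either direction. A p that misses the threshold does not show that the genotypes were alike.

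**Figure D3:**
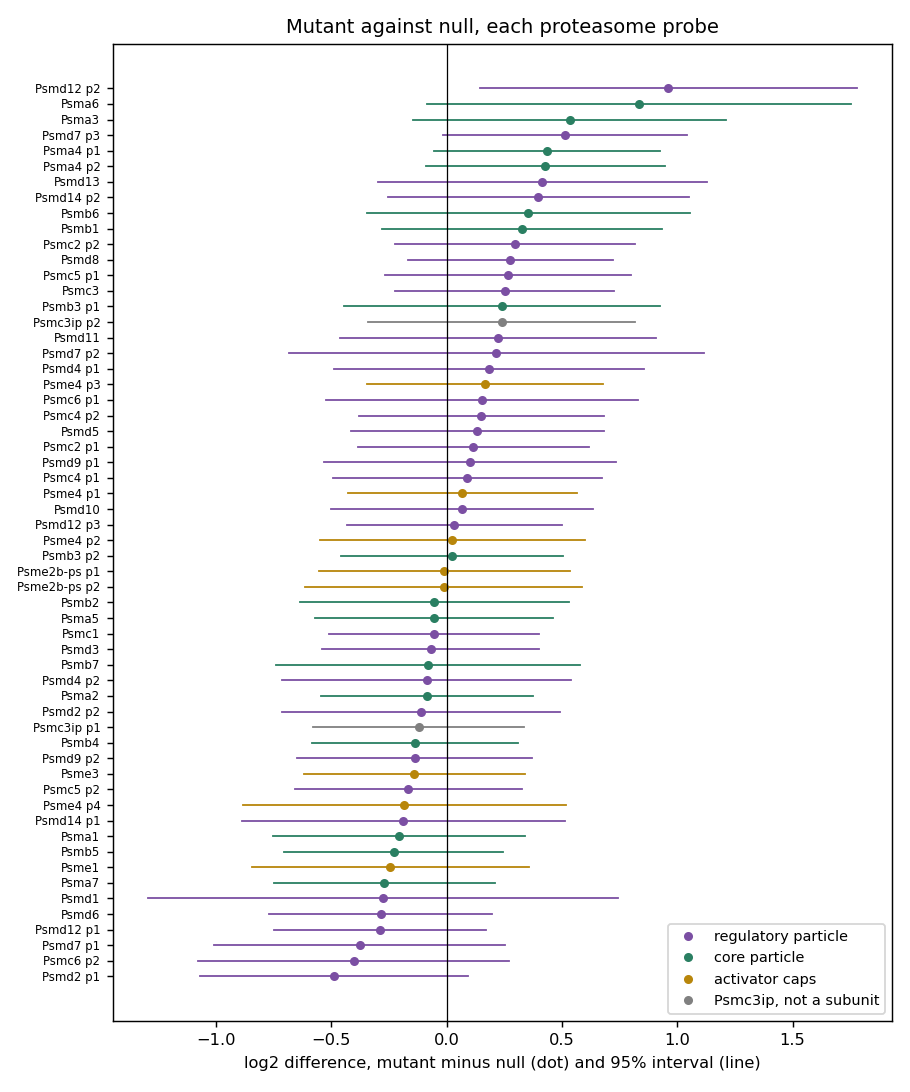
Each row is a tested probe, ordered by the log2 difference mutant minus null (dot) with its 95% interval from limma (line), coloured by part of the proteasome. The interval of Psmd12 p2, 0.14 to 1.78, is the one that leaves out 0.

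Probes of the same gene often disagreed. For 15 genes 2 or more probes were tested, and 24 had 1. The sign of the difference between mutant and null was not shared by all probes of 9 of the 15, and the median distance between a gene's lowest and highest probe was 0.35, with 1.25 for Psmd12. In the mean of all 4 mice, 5 of the 15 differed in sign, with a median distance of 0.17. To describe where along the gene they disagreed, the probe nearest the 5′ end was set against the one nearest the 3′ end, a comparison chosen after the values were seen. In null mouse 1 the 5′ probe was more than 0.5 log2 units below the 3′ probe in 6 of the 15 genes, against 14.1% of all 5294 genes with such probes. The 6 were Psmd12 at -0.87, Psmd4 at -0.86, Psmd2 at -0.85, Psmc5 at -0.80, Psmd14 at -0.77 and Psmc3ip at -0.67. In the other 3 mice no member gene was so low, where over all genes this share was 9.46% and 3.42% for the 2 mutants and 5.10% for null mouse 2. In the other direction, by more than 0.5, Psmc6 stood at 0.74 in null mouse 1. In mutant mouse 1 there were 4 genes, Psmd7 at 1.21, Psmd12 at 1.1, Psmc2 at 0.65 and Psme4 at 0.52, against 17.5% of all genes there. Among the probes behind these values, Psmd7 probe 2, Psmc2 probe 2, Psmd4 probe 2, Psmc6 probe 1 and Psme4 probe 1 had no match in RefSeq. Whether they read the same RNA as the other probe of their pair was not tested. Some of the values above also rest on dim probes. The background-subtracted pool signal was 30.2 to 34.7 for Psmc2 probe 2, 17.4 to 24.7 for Psme4 probe 3 and 43.7 to 51.9 for Psmd4 probe 2. The array of null mouse 1 was also the dimmest, and the part of RNA quality in these differences was not tested.

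**Figure D4:**
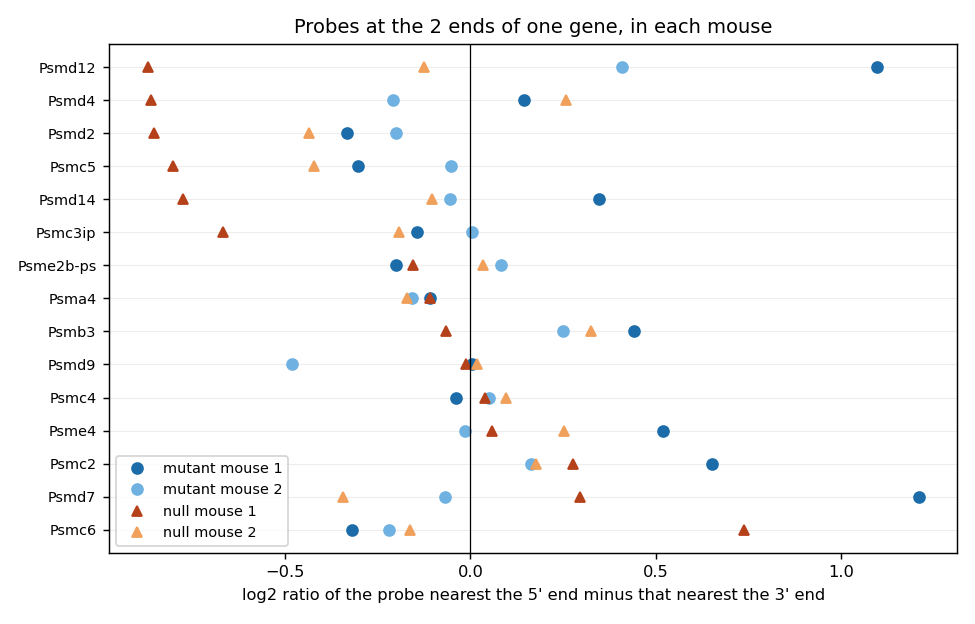
For each of 15 genes with 2 or more tested probes, the points give the log2 ratio of the probe nearest the 5′ end minus that of the probe nearest the 3′ end in each mouse. The 6 lowest values, from -0.87 to -0.67, are those of null mouse 1, and the highest, 1.21 for Psmd7, is that of mutant mouse 1.

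Genes that build or control the proteasome also had no call. In a list of assembly factors, bound factors and transcription factors, 19 genes were measured by 34 probes; 0 were called in any comparison, and the median over the 4 mice was 0.11. In the mean of all 4 mice 6 of the 34 had an unadjusted p under 0.05 above the pool and 2 below, against 9.3% and 8.26% of all probes. Within it, 5 probes of the assembly chaperones Psmg1 to Psmg4, Pomp and Paaf1 (4 of these genes were measured) had array medians of 0.49, 0.22, 0.30 and 0.25, all above the pool. The transcription factor set around Nfe2l1, with 17 probes, had medians of 0.055, -0.015, 0.43 and 0.0059, and 16 of its 17 probes were above the pool in null mouse 1, where 49.3% of all probes were; that mouse was the one with high heat shock genes. The ubiquitin list, from the ubiquitin genes through activating and conjugating enzymes to delivery factors, had 33 genes and 72 probes, 0 called and array medians from 0.0027 to 0.064. Its 7 probes of the ubiquitin genes themselves had medians of 0.29, 0.081, -0.23 and 0.11.

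**Figure D5:**
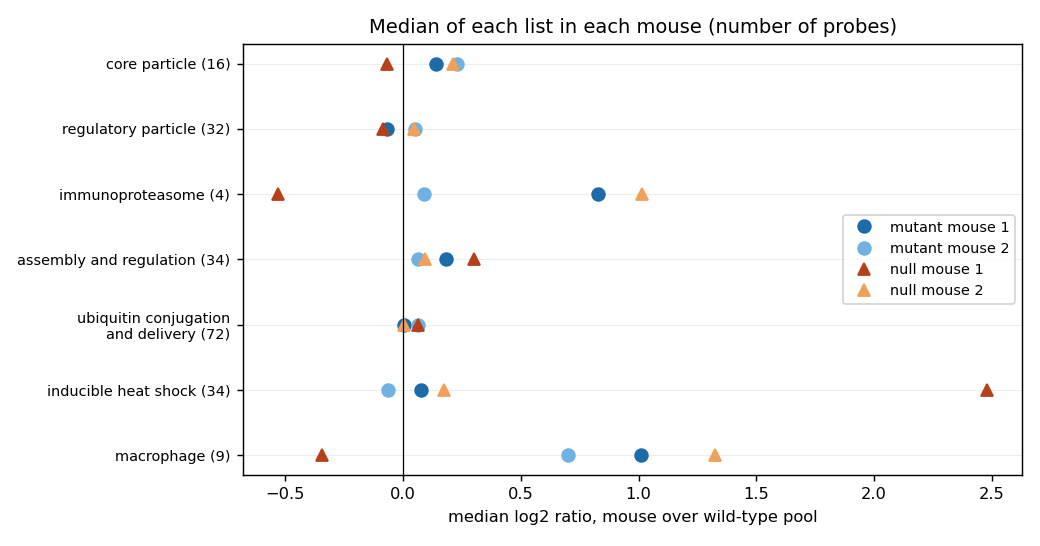
Each point is the median log2 ratio to the wild-type pool of a list of probes in 1 mouse, with the number of probes in brackets. The core and regulatory particle medians stay between -0.084 and 0.23, while the heat shock median of null mouse 1 is 2.48 and the immunoproteasome medians run from -0.53 to 1.01.

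The authors' deposited table of group means held 31 rows for 27 of the 40 gene names. The mutant mean was the higher in 20 of these rows and the null mean in 11. The same split over all 26174 rows of that table was not counted, so these counts are no result about the members. That table gives no value per mouse and no p-value. In the authors' deposited table the ratio of the larger over the smaller mean ran from 1.15 to 2.12 among these rows, with 2.12 for 1 Psmd12 row, higher in the mutant, and 1.25 for the other, lower in the mutant. The authors' deposited table gave 1.67 for Psma6 and 1.48 for Psma3, both higher in the mutant, and 1.40 for Psmd2, lower in the mutant. Some probes whose description in the files holds the word proteasome carry no subunit name and are not members. Of these, 3 were tested: LOC384862, which shares a run of 22 bases with Psmb3 probe 1, was at 0.58, 0.29, 0.035 and 0.53, AK171669 was at 0.79, 0.33, 0.60 and -0.028, and TC1536734 was at -0.055, -0.097, 0.028 and 0.12.

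The promoters of these genes were described by motifs in the 250 bases before the start, from RefSeq (GRCm38.p6), on both strands. A promoter was at hand for 31 of the 39 subunit genes. The antioxidant response element TGACNNNGC, the class of site that Nfe2l1 and its relatives use, was found in 2 of 11 core genes (Psmb5 and Psmb6), 3 of 17 regulatory genes (Psmc6, Psmd9 and Psmd12) and 0 of 3 activator genes, against 11.5% of all genes. CCAAT, the box bound by NF-Y, was found in 6 of 11, 5 of 17 and 1 of 3, against 37.5%. The E2F sites TTTCGCGC and TTTGGCGC were found in none of the 31, against 0.759% of all genes. Psma3 held a CCAAT, while Psma4 and Psmd2 held none of the 4 motifs searched, the fourth being the heat shock element GAANNTTC (1 of 11, 0 of 17 and 0 of 3, against 7.73%). A match or its absence says only which letters are in this window.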

How the data were processed

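Prostate RNA of 4 mice was compared with a pool of wild-type prostate RNA on 4 two-colour arrays from 1 slide. The authors deposited scanner files with spot intensity per channel, read with Agilent Feature Extraction 9.5.1.1 per the file headers, while the submitters' processing notes name 8.5. The authors' deposited table gives group means and their ratio, with no value per array. Positions are those of the files (mm7, per the file headers).

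Mean signals were corrected with normexp (offset 50) and each array was normalised by loess (limma 3.58.1, R 4.3.3), with controls and outlier spots left out. The 24918 probes tested had a signal well above background either from both mice of at least 1 genotype or from the pool in every hybridisation. One term per genotype was fitted with lmFit and eBayes and p adjusted by Benjamini-Hochberg over all probes tested, with 0.05 as the threshold. The pool is a single control sample: how wild-type mice vary among themselves is not part of the tests against it, and a dye effect stays in them. An exact permutation of 2 against 2 cannot go below p = 0.333, and the number of arrays limits the precision.

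The fit was tested on simulated data with known changes in the mutant arrays. All 4 simulated arrays had the same spread for a probe. In the real arrays the SD of the log2 ratio over probes ran from 0.29 to 0.54. The same simulated fit held 50 changes each of 8-fold and 16-fold, which make the adjusted threshold easier to pass. The counts below may therefore be too high for these data. For mutant against null, 0 of 50 changes of 2-fold and 28 of 50 of 4-fold were called. For mutant against the pool, 1 of 50 and 38 of 50 were called. In each of these comparisons 8 unchanged probes were called as well. Members and lists were chosen with earlier results of these data known. The naming rule covered Psma1, Psmc1, Psmd1 and Psmd10, the 3 highest and 3 lowest probes of the core and of the regulatory particle and the 2 of smallest p in each comparison, and genes whose probes differ in sign or by over 1 log2 unit. Replicate numbers were not used to pair the mice in the main fit. The correlation of the replicate differences over probes was 0.0035, and this single value cannot show whether the mice were matched. Alternatives changed the start signal, centring, offset, filter, probe choice, outlier spots and arrays included. RefSeq (GRCm38.p6) accessions matched 50 of the 60 members, all under the same symbol.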

Additional observations from a re-analysis of the deposited data

Results flagged for a closer look

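Over 65 results screened, 9 had 1 mouse far from the rest by Dixon's test. The chance rate of that test, about 1 in 20, holds for unrelated groups of a single kind. The 65 results share probes and mix 2 genotypes, so that rate is not a measure for them. The heat shock list was included because a null array was already known to stand apart. The heat shock median was 2.48 in null mouse 1. Null mouse 1 was also the low one for Psmb1 at -0.15, Psmc3ip probe 2 at -0.28 and Psmd13 at -1.0. Mutant mouse 1 was low for Psma1 at 0.11 and for Psmd7 probe 1 at -0.54. Mutant mouse 2 was low for Psmc5 probe 2 at -0.061 and for Psmd3 at -0.40, and null mouse 2 was high for Psmd9 probe 2 at -0.030. For 2 probes the genotypes lay on opposite sides of the pool in every mouse under loess. Psmd6, with a difference of -0.29, was below it in the mutant and above it in the null mice. Under median centring Psmd6 was above the pool in both, at 0.35 and 0.46. Its difference there was -0.028, because each comparison has its own shift taken out. Psmd7 probe 3, with a difference of 0.51, was above the pool in the mutant and below it in the null mice. In limma neither difference between the genotypes passed the threshold (adjusted p = 0.985 for both).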

How the results depend on the processing

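No member was called under any alternative except median centring. In place of loess it moved the median of all probes by 0.36 for mutant minus null. Against the pool the move was 0.57 for mutant, 0.12 for null and 0.34 for all 4 mice. Its values here are relative to the shift of their own comparison. These shifts are not additive, so centred values for mutant and null do not subtract to that for mutant minus null. A small centred difference, such as that of Psma1 (0.057), depends on this choice. The calls of median centring in limma, however, were made with the shift left in. Median centring called 4263 probes in the mean of all 4 mice, among them 9 core, 9 regulatory and 3 activator probes, all higher. With the shift taken out, Psma1 was at 0.89 and Psma3 at 0.91. Under loess the core, regulatory and activator medians against the pool were 0.19, 0.012 and 0.0060 for mutant and 0.050, -0.014 and -0.061 for null. For all 4 mice they were 0.18, 0.0057 and -0.042. Under median centring they were 0.80, 0.43 and 0.27 for mutant, 0.43, 0.18 and 0.19 for null and 0.58, 0.32 and 0.23 for all 4 mice. For mutant minus null, those of the core and regulatory particle were 0.24 and 0.30. Among the values the report gives, signs turned for Psma1 (0.057) and Psmc1 (0.20) in mutant minus null, for Psma6 (0.20) in null against the pool, for Psmd6 (0.35) in mutant against the pool, and for Psma7 (0.40), Psmb4 (0.47), Psmb5 (0.15), Psmc1 (0.18), Psmc3 (0.14), Psmd1 (0.12), Psmd2 probe 1 (0.026), Psmd3 (0.38) and Psme1 (0.23) in all 4 mice. With the brightest probe per gene, the regulatory median was -0.011 for mutant minus null, -0.11 for mutant and -0.067 for all 4 mice against the pool, the core median 0.12 for mutant against the pool, and the activator medians -0.046 for mutant and 0.047 for null. The activator median of the null mice was 0.037 with the processed signals of the scanner software, and that of the mutant mice -0.060 with both channels above background on all arrays. The cause of these differences was not tested. Over all the probe values that the naming rule covers, 59 of the values under these alternatives changed sign, 6 became called and 837 did neither.

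Leaving out each array in turn called no member. Over all probes, leaving out null mouse 2 called 31 for mutant minus null, 2 for mutant, 385 for null and 326 for all 4 mice against the pool, and leaving out null mouse 1 called 0, 2, 0 and 36. For mutant minus null the regulatory median ran from -0.029 to 0.17, Psmc1 from -0.11 to 0.0020, Psmd1 from -0.84 to 0.29 and Psmd10 from -0.11 to 0.24. The activator median of the mutant mice ran from -0.058 to 0.011, Psma6 in the null mice from -0.63 to 0.35, and Psmd1 in all 4 mice from -0.41 to 0.16. Of the values the naming rule covers, 46 changed sign and 482 did not. A lone array in a genotype is assumed to vary like the other genotype.

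With the replicate number as a block, 0 members were called for mutant minus null and the regulatory median stayed at 0.096; the block changed no call. With 2 mice per genotype, the number of arrays limits what differences can be called.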
